A study of Mus musculus with 7 samples.

Results

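Small leucine-rich proteoglycans are short matrix proteins built of leucine-rich repeats, most of which carry chondroitin, dermatan or keratan sulfate chains. They bind fibrillar collagens and set how thick and how evenly spaced the fibrils become, and several of them also bind growth factors of the TGF-beta family. In skin, decorin is the best known of them and is made by dermal fibroblasts. The 10 members described here are Dcn, Bgn, Aspn, Lum, Prelp, Fmod, Kera, Omd, Ogn and Podn, chosen by name from the 34947 gene names on the array, without regard to their values. Each has 1 probe, and 9 of the 10 have 1 spot on each array.

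The series asked whether precursors in the mouse dermis that can form muscle come from satellite cells, which renew skeletal muscle. Each of 7 cell populations was pooled from 8 to 10 mice, gave 10 to 200 ng of total RNA by the labels, and was hybridised to 1 single-colour Agilent array of 60-mer probes. Lineage tracing marks cells whose ancestors expressed a Cre recombinase gene, so a traced cell need not express the driver when it is sampled. Neither the sorting nor any culture is described in the labels.

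The Sdc4+ group, named for the cell-surface proteoglycan syndecan-4, held 3 populations. These were Myf5SOR+ Sdc4+ cells, from a strain with Cre at the Myf5 locus (B6.129S4-Myf5tm3(cre)Sor /J), Cspg4- Sdc4+ cells, from a strain with a Cspg4-cre transgene (B6,FVB-Tg(Cspg4-cre)1Akik/J), and CD1 Sdc4+ cells, from outbred Crl:CD1(ICR) mice. The Sdc4- group held B195AP+ cells of the B195AP-Cre strain (its driver is not named in the labels), Cspg4- cells of the Cspg4-cre strain and CD1 cells. The seventh array held Cspg4+ cells of the Cspg4-cre strain, with no Sdc4 label. Myf5 is a regulator of muscle commitment, and Cspg4 encodes the NG2 proteoglycan of pericytes.

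Between 45.9% and 57.2% of the non-control spots of an array were well above background, the software's flag for a signal clear of the local and negative-control background. Levels below are log2 values relative to the 75th percentile of the same array, so 0 stands for that percentile and 1 unit for a doubling. The 3 Sdc4+ arrays lay in row 1 of the slide and the others in row 2, so row and Sdc4 label cannot be told apart. Sdc4 mRNA was at 6.29 and 6.35 in the Cspg4- Sdc4+ and CD1 Sdc4+ populations but at 3.80 in the population labelled Myf5SOR+ Sdc4+, below the 5.11 and 5.28 of the Cspg4- and CD1 Sdc4- populations and above the 1.98 of B195AP+. Cspg4 mRNA was at 1.15 on the array labelled Cspg4+ and between -0.58 (Myf5SOR+) and 1.996 (B195AP+) on the others. Of 10 dermal fibroblast markers, 9 were used and were well above background on 7 of 7 arrays. Of 10 satellite cell and myoblast markers, Pax7, Pax3, Myf5 and Chrdl2 were well above background on 0 arrays, Myod1 on 1, Myog and Des on 5, and Cdh15, Vcam1 and Itga7 on 7. The summed linear level of the fibroblast markers was 480 to 555 times the 75th percentile in Sdc4+, 497 to 563 in Sdc4- and 616 in Cspg4+ cells. The corresponding sum of 6 muscle fibre genes was 0.313 to 1.33 in Sdc4+, 4.64 to 30.8 in Sdc4- and 1.06 in Cspg4+ cells. These 6, of 10 listed, were well above background on at least 3 arrays. The probes used for Myh1 and Ttn met this through the 3 Sdc4- arrays alone. The choice thus favours Sdc4-, and no difference is read from the sum. Of the others, Myh2 and Mylpf were well above background on 0 arrays, and Ckm and Myh4 on 1 (CD1 Sdc4-). In bulk samples fewer cells of a type and less RNA per cell cannot be told apart. The B195AP+ array has a streaked region near 1 corner and 689 spots marked as outliers, against 137 to 168 on the others.

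Genes of the family lie in groups on the chromosomes. In the RefSeq gene table (assembly GRCm38.p6) no other protein-coding gene starts between neighbours in the runs Dcn, Lum and Kera on chromosome 10, Aspn, Omd and Ogn on chromosome 13, and Prelp and Fmod on chromosome 1. Bgn is on chromosome X and Podn on chromosome 4. The array probes of the members lie, in the mm9 positions given by the files, at chr10:96980233-96980292 for Dcn, chr10:97035210-97035269 for Lum and chr10:97076230-97076289 for Kera. The chromosome 13 probes lie at chr13:49662479-49662538 for Aspn, chr13:49687847-49687906 for Omd and chr13:49719549-49719608 for Ogn. The others lie at chr1:135943998-135944057 for Fmod, chr1:135806855-135806914 for Prelp, chrX:70738554-70738613 for Bgn and chr4:107687484-107687543 for Podn. Exon or UTR placement of these positions was not determined here. The probes of the brightest member, Dcn, and of the flattest measured member, Bgn, are shown as they stand on the array.
Dcn probe: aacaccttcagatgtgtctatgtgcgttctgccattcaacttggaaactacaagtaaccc
Bgn probe: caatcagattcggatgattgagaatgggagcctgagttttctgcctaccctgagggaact

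Promoters from RefSeq (GRCm38.p6) were matched for 8 of the 10 members, and 4 of them, all on the plus strand, are shown as the 250 bases before the gene start. The 3 of chromosome 13 are neighbours of which Ogn was measured while Aspn and Omd were at background in the 7 populations, and Bgn is shown as a member that was nearly level across populations. Capitals mark TATAAA, the basic helix-loop-helix core CANNTG and GGGCGG, each searched on both strands.
Ogn, chr13:49607765-49608014: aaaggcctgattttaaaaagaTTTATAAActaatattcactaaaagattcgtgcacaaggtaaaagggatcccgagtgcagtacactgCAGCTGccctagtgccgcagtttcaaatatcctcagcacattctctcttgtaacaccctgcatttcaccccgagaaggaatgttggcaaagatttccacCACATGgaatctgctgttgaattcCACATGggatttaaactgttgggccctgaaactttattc
Aspn, chr13:49544193-49544442: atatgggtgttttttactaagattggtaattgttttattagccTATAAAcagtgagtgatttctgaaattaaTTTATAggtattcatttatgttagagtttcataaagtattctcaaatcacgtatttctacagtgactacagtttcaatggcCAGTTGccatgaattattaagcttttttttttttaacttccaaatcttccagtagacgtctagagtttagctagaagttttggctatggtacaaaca
Omd, chr13:49582212-49582461: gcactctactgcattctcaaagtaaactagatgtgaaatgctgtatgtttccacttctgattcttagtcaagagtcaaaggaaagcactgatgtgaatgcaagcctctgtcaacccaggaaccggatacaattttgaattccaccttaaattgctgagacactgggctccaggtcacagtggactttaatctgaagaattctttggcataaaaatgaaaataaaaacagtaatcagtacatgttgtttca
Bgn, chrX:73483351-73483600: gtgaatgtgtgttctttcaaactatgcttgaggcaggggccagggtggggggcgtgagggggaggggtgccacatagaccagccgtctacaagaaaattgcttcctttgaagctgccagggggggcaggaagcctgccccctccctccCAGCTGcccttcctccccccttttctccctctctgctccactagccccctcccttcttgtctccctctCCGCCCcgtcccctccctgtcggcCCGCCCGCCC

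The Ogn window holds CANNTG at 3 places and TATAAA at 2 overlapping places, 1 on each strand. The Aspn window holds TATAAA at 2 places and CANNTG at 1, and the Omd window holds none of the 3 motifs. The Bgn window holds GGGCGG at 3 places, 2 of them overlapping, and CANNTG at 1. Among 32841 mouse promoter windows of this length, 12.4% hold TATAAA, 66.2% CANNTG and 32.7% GGGCGG. GC content was 42.0% for Ogn, 30.0% for Aspn, 38.4% for Omd and 64.4% for Bgn. These matches describe letters and not bound sites.

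Of the 10 members, 4 (Dcn, Bgn, Lum and Podn) were well above background in all 7 populations, 2 (Ogn and Prelp) in some, and 4 (Aspn, Fmod, Kera and Omd) in none. The filter, which asks for a signal well above background on at least 3 arrays, was passed by 6. Ogn and Prelp passed through the populations in which they were bright.

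**Figure D1:**
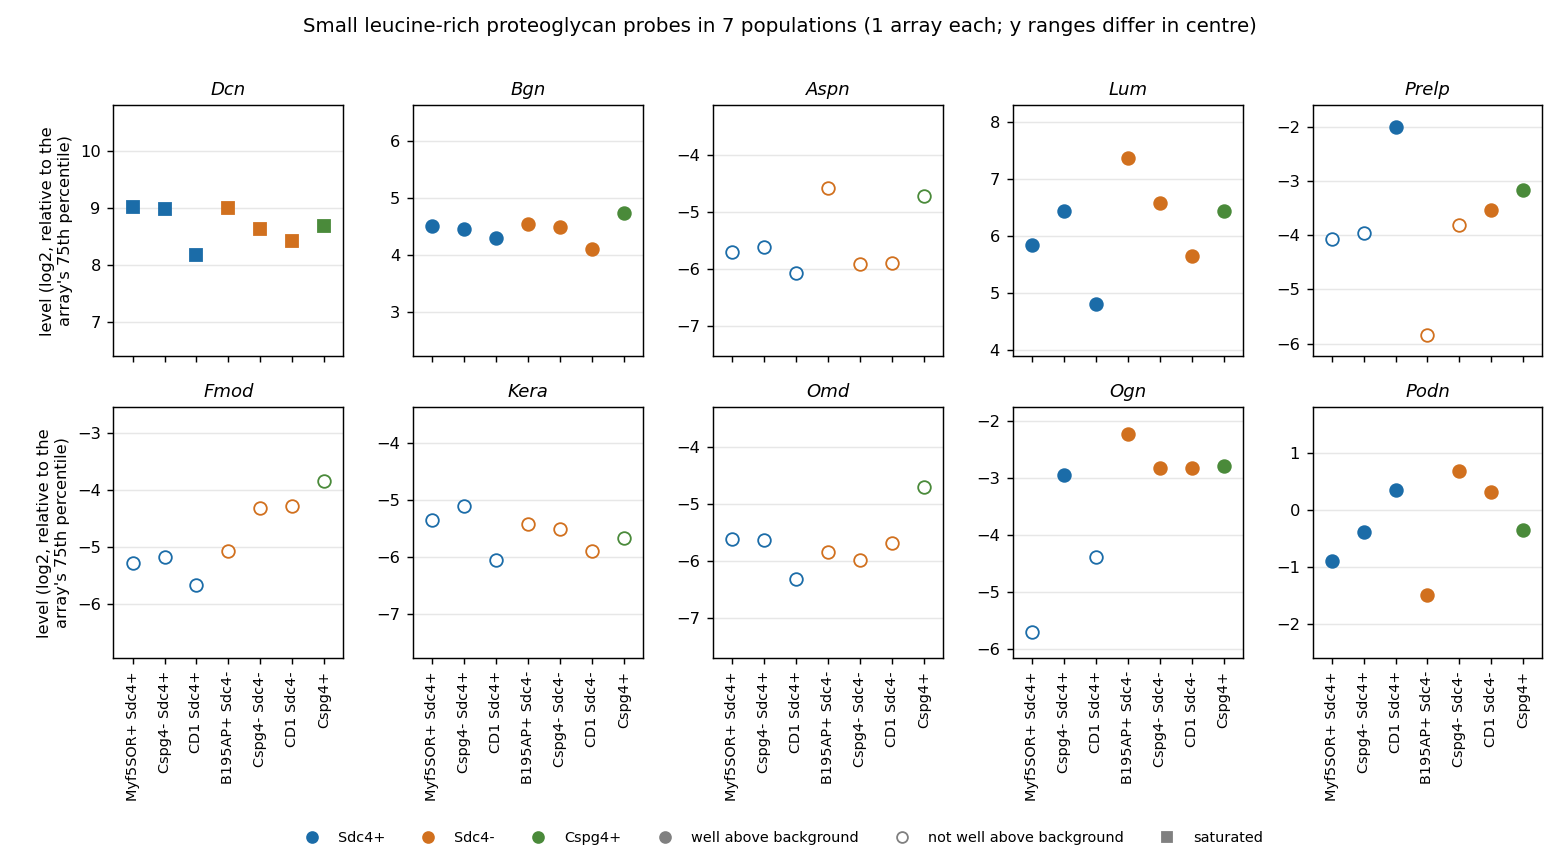
Level of each member's probe (y axis, log2 relative to the array's 75th percentile) in the 7 populations (x axis, 1 array each, coloured by group). Filled symbols are well above background, open ones are not, and squares are saturated. Dcn is saturated throughout, Bgn stays between 4.10 and 4.74, Lum runs from 4.80 to 7.37, and Aspn, Fmod, Kera and Omd are open in every population.

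Dcn, which encodes decorin, a collagen-binding proteoglycan that also binds TGF-beta, gave a saturated spot in 7 of 7 populations. Its raw signal was at 65501 to 65535, the top of the scanner's range, and its processed signal at 64720 to 80773. It shared this with 111 probes of the array that were saturated on the 7 arrays, itself included. Saturation leaves only a lower bound on each side, so no fold change or order among populations is given for Dcn.

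Bgn, which encodes biglycan, the closest relative of decorin, differed least of the measured members. Its level was 4.52 in Myf5SOR+, 4.46 in Cspg4- and 4.30 in CD1 cells of the Sdc4+ group, 4.54 in B195AP+, 4.49 in Cspg4- and 4.10 in CD1 cells of the Sdc4- group, and 4.74 in Cspg4+ cells. The groups overlapped, and the CD1 populations were the lowest of the 7. Highest and lowest were 1.56-fold apart, a range larger than that of 21.8% of the 19760 genes tested. Among the 1132 genes within 0.5 log2 units of its mean level, 37.0% had a smaller range. Of its 6 gaps between neighbours in this order, only those below Cspg4- Sdc4+ and between the CD1 populations (0.16 and 0.20) exceeded 2 SD of the scatter expected between spots of 1 probe, a technical spread from probes with at least 8 spots. Aspn, which encodes asporin, a relative of decorin that lacks glycosaminoglycan chains, was not well above background in any population.

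Lum, which encodes lumican, a keratan sulfate proteoglycan that limits collagen fibril thickness, had the widest range among the members well above background and below saturation on 7 arrays. Its level was 5.84 in Myf5SOR+, 6.44 in Cspg4- and 4.80 in CD1 cells of the Sdc4+ group, 7.37 in B195AP+, 6.58 in Cspg4- and 5.65 in CD1 cells of the Sdc4- group, and 6.44 in Cspg4+ cells. B195AP+ was highest and the CD1 populations lowest, while the 3 populations of the Cspg4-cre strain lay within 0.14 of each other. The range of 2.58 log2 units is 5.96-fold, larger than that of 90.9% of all genes and of 97.9% of the 536 genes within 0.5 log2 units of its mean level. Only Cspg4+ and Cspg4- Sdc4+ cells, at neighbouring places in the order, differed by less than 2 spot SDs (a gap of 0.0023).

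The Lum spot lies inside the streaked region of the B195AP+ array. The 31 bright spots within 5 rows and columns of it deviated there from the other arrays by a median of 0.26 log2 units. Among those 31, 1 spot was over 4-fold higher than on the other arrays and 0 were over 4-fold lower. The part of the streaks in the B195AP+ value was not tested. Without that array Lum ran from 4.80 to 6.58.

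Prelp, which encodes a heparin- and collagen-binding member found in cartilage and connective tissue, was well above background in 3 populations. These were CD1 Sdc4+ at -2.01, Cspg4+ at -3.16 and CD1 Sdc4- at -3.54. The values of -4.07 in Myf5SOR+, -3.97 in Cspg4- Sdc4+ and -3.81 in Cspg4- Sdc4- cells were not, and that of B195AP+ was replaced by the software with a surrogate, as for a signal too low to keep. CD1 Sdc4+ cells lay 1.15 above the next population, which is beyond 2 spot SDs (0.58), and the steps from Cspg4+ down to CD1 Sdc4- were within it.

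Fmod (fibromodulin, which binds collagen, as lumican does), Kera (keratocan, a proteoglycan of the cornea) and Omd (osteomodulin, a member found in bone) were not well above background in any population. A weaker flag, positive and significant against the local background, was set for Fmod on 7 arrays, for Aspn and Kera on 3 each and for Omd on 2. Fmod was between -5.66 and -5.17 in Sdc4+, between -5.07 and -4.28 in Sdc4- and at -3.84 in Cspg4+ cells, and values this low carry no order. Kera was read by 10 spots per array, and the brightest spot not marked as an outlier had a processed signal of 8.41 on any array.

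Ogn, which encodes osteoglycin or mimecan, a member found in bone and connective tissue, was dim but measured in 5 populations. Its level was -2.94 in Cspg4- Sdc4+, -2.22 in B195AP+, -2.82 in Cspg4- Sdc4-, -2.81 in CD1 Sdc4- and -2.78 in Cspg4+ cells. It was not well above background in CD1 Sdc4+ (-4.39) and Myf5SOR+ cells, where the software had put in a surrogate. No step among the 5 measured values, in order, exceeded 2 spot SDs.

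Podn, which encodes podocan, a collagen-binding member of a separate class, was well above background in 7 of 7 populations. Its level was -0.88 in Myf5SOR+, -0.37 in Cspg4- and 0.35 in CD1 cells of the Sdc4+ group, -1.48 in B195AP+, 0.69 in Cspg4- and 0.32 in CD1 cells of the Sdc4- group, and -0.35 in Cspg4+ cells. The populations of the traced strains Myf5SOR and B195AP were the lowest and Cspg4- Sdc4- the highest, a 4.49-fold range. The CD1 populations differed by 0.04, and Cspg4+ and Cspg4- Sdc4+ cells by 0.03, both within the spot spread.

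The first comparison set the 3 Sdc4+ populations against the 3 Sdc4- ones in limma, with all 7 arrays in 1 fit and Benjamini-Hochberg adjustment over 19760 genes. Of the 6 members tested, which include Dcn, saturated on 7 of 7 arrays, 0 passed the threshold of 0.05, against 0% of all genes. At an unadjusted p under 0.05 the count was 1 of the 5 unsaturated members, Ogn, against 8.7% of all genes (1720). The smallest adjusted p over all genes was 0.222.

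Bgn was at 4.43 ± 0.11 (SD, n = 3) in Sdc4+ and 4.38 ± 0.24 (SD, n = 3) in Sdc4- populations. The log2 difference was 0.05 with a standard error of 0.21, a 95% interval of -0.45 to 0.54 and an adjusted p of 0.962 in limma. The interval reaches less than 1.5-fold either way. Lum was at 5.69 ± 0.83 in Sdc4+ and 6.54 ± 0.86 in Sdc4- (SD, n = 3 each), a difference of -0.84 (SE 0.56, interval -2.17 to 0.48, limma adjusted p 0.705). The difference is about as large as the SD between strains within each group. Podn was at -0.30 ± 0.62 and -0.16 ± 1.16 (SD, n = 3 each), a difference of -0.14 (SE 0.61, interval -1.59 to 1.30, limma adjusted p 0.960).

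Ogn was lower on the 3 Sdc4+ arrays than on the 3 Sdc4- arrays. It passed the filter through the populations where it was bright and 2 of its 3 Sdc4+ values were not well above background, so nothing is read from this order, which 9.74% of all genes shared (15.7% in either direction). The groups came within 0.12 of each other, at -2.94 in Cspg4- Sdc4+ and -2.82 in Cspg4- Sdc4- cells. The difference was -1.73 (SE 0.65, interval -3.28 to -0.17, limma adjusted p 0.545), and only 1 of the 3 Sdc4+ arrays measured the probe. With dim values raised to the lowest value well above background on their array, a setting chosen after the data were seen, it was -1.04 with an adjusted p of 0.543. Of the 6 muscle fibre genes summed above, Myh1, Ttn and Actn2 were well above background on 3 Sdc4- arrays and 0 Sdc4+ arrays, and Acta1, Myh3 and Tnnt3 on 3 Sdc4- and 2, 1 and 3 Sdc4+ arrays. Their part in the Ogn values was not tested. Prelp was 1.05 higher in Sdc4+ (SE 0.78, limma adjusted p 0.733), with 1 of 3 arrays measured on each side.

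Arrays that stood apart were Myf5SOR+, by its Sdc4 mRNA, and B195AP+, by its outlier spots. Without Myf5SOR+ the Sdc4+ minus Sdc4- differences were 0.0015 for Bgn, -0.92 for Lum, 0.15 for Podn, -1.05 for Ogn and 1.41 for Prelp. Without B195AP+ they were 0.13 for Bgn, -0.43 for Lum, -0.80 for Podn, -1.53 for Ogn and 0.33 for Prelp. Without CD1 Sdc4+ they were -0.40 for Lum, 0.38 for Prelp and -0.47 for Podn, and without CD1 Sdc4- they were -1.29 for Lum, -0.09 for Bgn and 0.09 for Podn. Without Cspg4- Sdc4- the Podn difference was 0.28. No member passed the test in any of these fits.

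**Figure D2:**
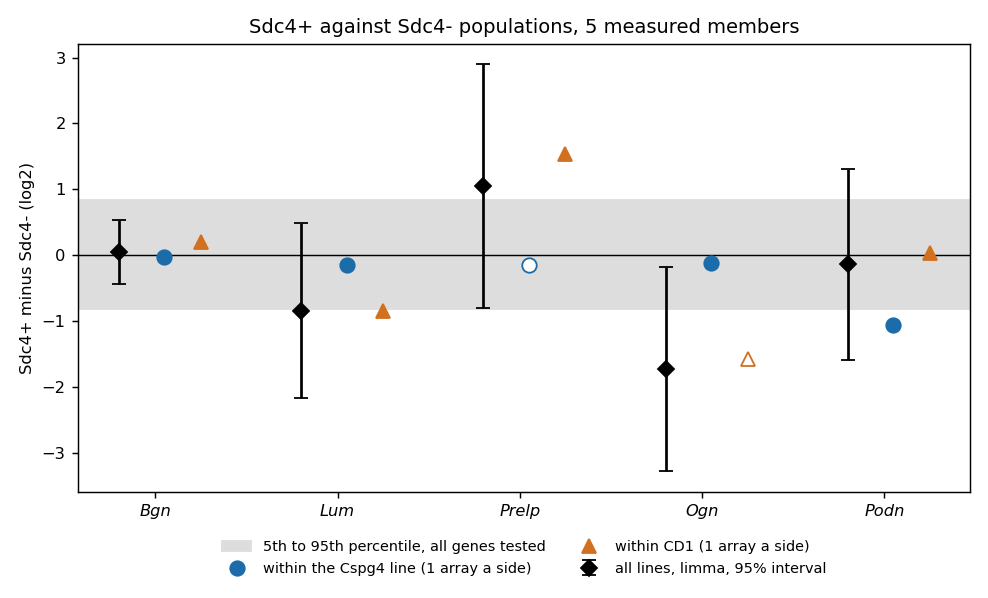
Sdc4+ minus Sdc4- difference (y axis, log2) of the 5 members below saturation. Diamonds are the limma estimate over all lines with its 95% interval, circles and triangles are the single-array differences within the Cspg4-cre strain and within CD1, open where an array was not well above background, and the grey band holds the middle 90% of all genes. The interval for Bgn is the narrowest. That for Ogn, which is unadjusted, does not reach 0, but only 1 of its 3 Sdc4+ values was well above background. Nothing is read from it.

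Within a strain, each side has 1 array and there is no test. In the Cspg4-cre strain Lum, Ogn and Bgn differed by -0.14, -0.12 and -0.03 between Sdc4+ and Sdc4- cells, and Podn by -1.06. So 1 of the 4 members measured on both arrays was over 2-fold apart, against 8.77% of all genes, a share that includes values near background. Over the alternative settings this Podn difference ran from -1.12 to -0.75, so it was not past 2-fold in all of them. In CD1 Lum differed by -0.85, Bgn by 0.20, Podn by 0.04 and Prelp by 1.53. Ogn was 2.98-fold higher in Sdc4- cells by value, but its Sdc4+ value was not well above background. Over the alternative settings this log2 difference of Ogn ran from -1.60 to -0.36, so no lower bound is given. Of the 4 members measured on both CD1 arrays 1, Prelp, was over 2-fold apart, against 4.64% of genes. Prelp passed the filter through the CD1 and Cspg4+ arrays, so nothing is read from this count. In later comparisons a bound is the bright value over the lowest value well above background on the dim array. It is given where the dim value lay below that lowest value.

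The Cspg4+ cells were compared with both groups and with Cspg4- Sdc4- cells of the same strain. In limma 0 of 6 members and 0% of all genes passed against either group, where 3.62% (Sdc4-) and 7.75% (Sdc4+) of genes had an unadjusted p under 0.05. The 6 members include Dcn, saturated on 7 of 7 arrays. The single Cspg4+ array borrowed the spread of the other 6 arrays. Bgn was 0.36 above the Sdc4- mean (SE 0.29, adjusted p 1.00) and 0.32 above the Sdc4+ mean (SE 0.29, adjusted p 0.932). Within the strain Lum differed by -0.14 and Bgn by 0.25, and Podn was 1.03 lower in Cspg4+ cells. Podn was the 1 member past 2-fold of 4 measured on both arrays, against 5.51% of genes. Over the alternative settings its difference ran from -1.07 to -0.74, so it was not past 2-fold in all of them. This count and that of the Sdc4 comparison in this strain share the Cspg4- Sdc4- array and are not separate observations.

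The 2 traced populations without a counterpart of their own strain were set against the other arrays of their group. Myf5SOR+ cells differed from the mean of the other Sdc4+ populations by 0.22 in Lum, 0.14 in Bgn and -0.87 in Podn. Prelp and Ogn were not well above background in Myf5SOR+ cells and in 1 of the 2 other populations, so no fold is given. Of the 3 members measured on the 3 arrays, 0 were past 2-fold, against 6.9% of genes. B195AP+ cells differed from the mean of the other Sdc4- populations by 1.26 in Lum, 0.60 in Ogn, 0.25 in Bgn and -1.98 in Podn. Prelp was not well above background in B195AP+ and Cspg4- Sdc4- cells, so no fold is given. The median gene differed by 0.26 in this comparison, close to the value of Bgn. Past 2-fold were 2 of the 4 members measured on the 3 arrays, against 15.4% of genes.

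The Podn and Lum values turned in opposite directions in B195AP+ cells. Podn was 3.95-fold lower and Lum 2.39-fold higher than in the other Sdc4- populations, and neither value of B195AP+ lay within the range of the other 6 arrays. The Podn spot lies outside the streaked region and the Lum spot inside it. The median gene was 0.26 higher in B195AP+ cells. Over the alternative settings that gave a value, the difference ran from 0.91 to 1.26 for Lum and from -2.21 to -1.20 for Podn.

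The strains were compared within each fraction, a comparison made with earlier results of these data known. CD1 cells had less Lum than Cspg4- cells in both fractions, by 1.64 log2 units among Sdc4+ (3.12-fold) and 0.93 among Sdc4- (1.91-fold). Bgn was lower by 0.16 and 0.38. Podn was 0.73 higher in CD1 among Sdc4+ and 0.37 lower among Sdc4- cells. Prelp was at least 3.02-fold higher in CD1 among Sdc4+ cells and 1.21-fold higher by value among Sdc4- cells. Ogn was 2.72-fold lower by value among Sdc4+ and differed by 0.0073 among Sdc4- cells. The dim side of the 1.21-fold and 2.72-fold values was not well above background, and these are not bounds. Prelp and Ogn were each not well above background on an Sdc4+ array of this pair and are not counted. Past 2-fold was 1 (Lum) of the 3 members measured on both arrays among Sdc4+, where 10.2% of genes were. Among Sdc4- cells 0 of the 4 members measured on both arrays were, against 9.6% of genes.

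**Figure D3:**
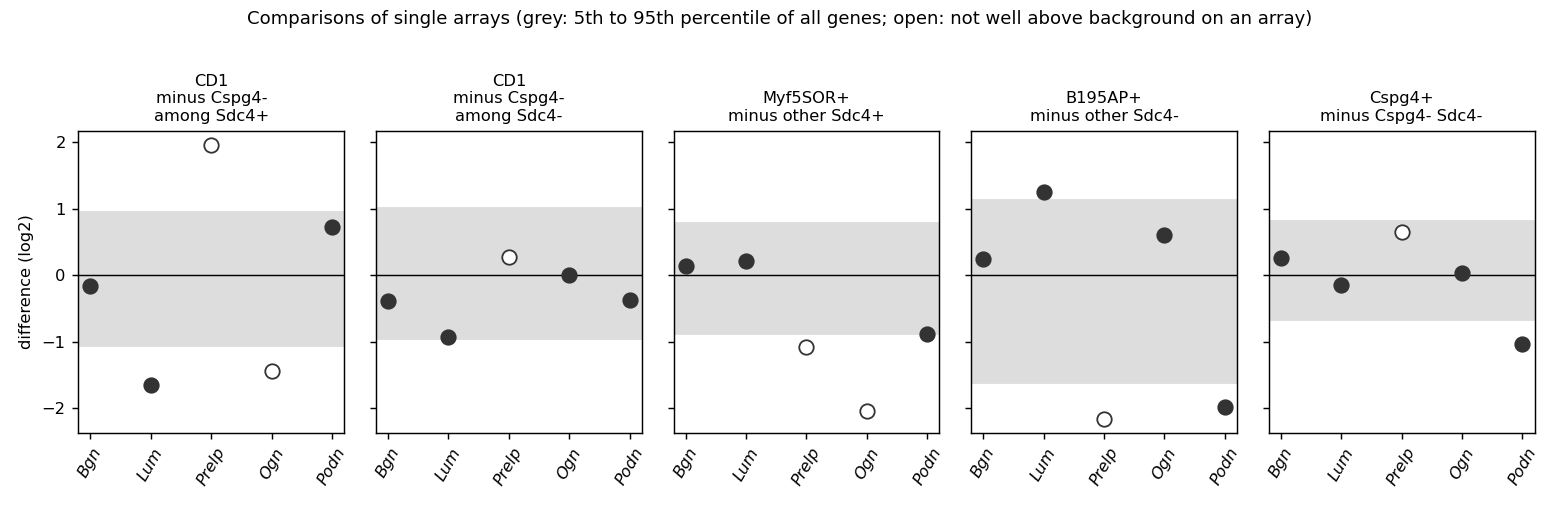
Difference (y axis, log2) of the 5 members below saturation in 5 comparisons with a single array on at least 1 side. Open circles have a value not well above background on 1 or more arrays, and the grey band holds the middle 90% of all genes. Lum lies below 0 in both CD1 panels and above the band in B195AP+, where Podn lies below it.

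Other genes of the family and of its pathway were described from lists. Of 8 further family genes, Epyc, Optc and Ecm2, which sit in the same chromosome groups, were not well above background on any array, and 3 were tested. Between Sdc4+ and Sdc4- populations Tsku (tsukushi, which binds BMP and Wnt ligands) differed by 0.24, Chadl (chondroadherin-like) by 0.11 and Podnl1 (podocan-like 1) by -0.63 (-0.12 without CD1 Sdc4-), and 0 passed.

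Enzymes that build the chondroitin and dermatan sulfate chains were nearly all present. Of 22, 21 were tested, 19 were well above background on 7 arrays and 0 passed the test, with 13 higher and 8 lower by value and a median difference of 0.05, against -0.06 over all genes. Chst11, a chondroitin 4-O-sulfotransferase, had the highest difference at 0.80 (SE 0.31, limma adjusted p 0.553). Chst3, a chondroitin 6-O-sulfotransferase, had the lowest at -1.03 (SE 0.32, limma adjusted p 0.513). Chst3 was well above background on only 5 of the 7 arrays, and not in Cspg4- Sdc4+ cells, so nothing is read from its value. Of 10 keratan sulfate genes, 7 were tested and 0 passed, with a median of 0.23, from 0.49 for St3gal3 to -0.48 for Chst1, which sulfates galactose of keratan sulfate.

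The collagens and fibril-assembly genes that the proteins act on were likewise measured, 16 of 18, and 0 passed. By value 7 were higher and 9 lower in Sdc4+, with a median of -0.06. Col1a1, the alpha-1 chain of type I collagen, had the lowest difference at -0.73 (SE 0.26, adjusted p 0.533), and Tnxb, which encodes the fibril-linking tenascin-X, the highest at 1.55 (SE 1.36, adjusted p 0.762). Without the B195AP+ array the Tnxb difference was -0.20, and within the Cspg4-cre strain and CD1 it was -0.26 and -0.12. Col2a1 and Col11a1, chains of cartilage collagens, were not well above background on any array. Among Cspg4+ against Cspg4- Sdc4- cells, 15 of 15 unsaturated members of this list were higher by value, by a median of 0.16, where 61.4% of all genes were higher and the median gene by 0.07. Above that median gene lay 13 of the 15. For Sdc4+ minus Sdc4- cells, the genes of this list above the median gene were 5 of 16 within the Cspg4-cre strain and 2 of 15 within CD1. They were 5 of 16 for Myf5SOR+ and 5 of 15 for B195AP+ cells against the others of their group. For CD1 minus Cspg4- cells they were 7 of 16 among Sdc4+ and 9 of 16 among Sdc4-. These counts rest on single arrays and have no test, so nothing is read from the 15 of 15.

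Of 14 receptors and ligands known to interact with these proteoglycans, 13 were tested and 0 passed, with a median of 0.17. Tgfb2, a TGF-beta ligand, was highest at 1.60 (SE 0.62, adjusted p 0.553; 0.84 without B195AP+) and Kdr, a VEGF receptor, lowest at -0.43 (SE 0.22, adjusted p 0.622). Of 7 large proteoglycan and link-protein genes, 3 were tested and 0 passed, with a median of -0.27, from -0.26 for Hapln3 to -0.50 for Hspg2, which encodes perlecan. Without B195AP+ these were -0.15 and -0.10.

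**Figure D4:**
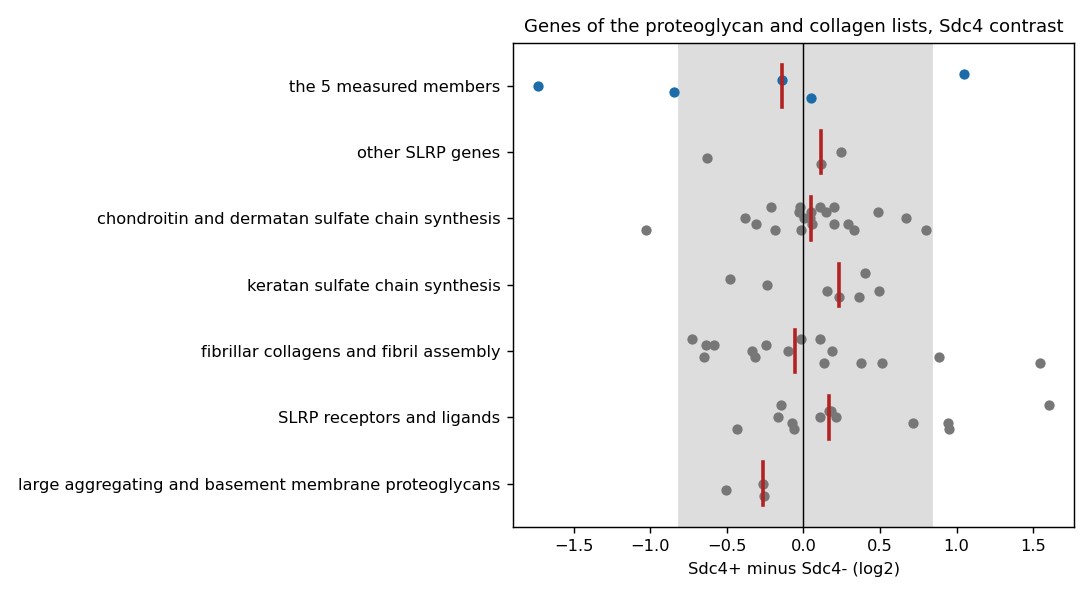
Sdc4+ minus Sdc4- difference (x axis, log2) of each tested gene of the members and of 6 related lists (y axis), 1 dot per gene, saturated Dcn left out. Red lines are list medians and the grey band holds the middle 90% of all genes. The list medians lie between -0.27 and 0.23, inside the band.

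The genes whose pattern over the 7 arrays was most like each member's were named by Pearson correlation among about 3532 plainly named genes with an SD of at least 0.5, as a description over 7 points that share slide and strains. For Lum these were Arhgap22 (r = 0.997), Slc35e2 (0.988) and Cyp51 (0.985). For Podn they were Ajap1 (0.977), Parp16 (0.960) and Traf1 (0.958). For Bgn they were Fgf11 (0.975), Pcdhga5 (0.968) and Pde6h (0.963). For Ogn they were Jun (0.981), Zfp607b (0.966) and Slc10a7 (0.966), and for Prelp Fmo2 (0.977), Fzd7 (0.969) and Pde3a (0.962). The patterns of Ogn and Prelp include values not well above background. Bgn spanned only 0.64 log2 units, and most of its gaps between populations were within the spot spread. The part of technical scatter in its r values was not tested. Probes of Slc35e2, Cyp51, Parp16, Fgf11, Jun, Zfp607b, Slc10a7, Fmo2 and Fzd7 lie in the streaked region of the B195AP+ array. Among the members measured on 7 arrays, r was 0.58 for Lum and Bgn, -0.55 for Lum and Podn and -0.47 for Bgn and Podn.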

How the data were processed

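The deposited scanner files hold fluorescence intensity per spot from Agilent Feature Extraction 11.5.1.1 with mm9 probe positions, per the file headers. Log2 values in the authors' series table, for which the submitters' processing notes name lumi without a version, served as an alternative. The labels name biotin, while the files hold 1 green channel. The processed signal was log2-transformed and centred on the 75th percentile of its array. Outlier spots were set to missing, spots of a probe averaged, and the brightest probe kept per gene, provided it was well above background on 3 or more of 7 arrays. A probe counted as well above background where most of its spots were. Of 55681 probes, 27656 were named through RefSeq accessions. limma 3.58.1 (R 4.3.3) fitted 3 group means and 3 contrasts, with Benjamini-Hochberg adjustment at 0.05, and the script was tested on simulated data. Arrays of a group come from different strains, so p-values measure the spread between them. Comparisons of single arrays outside that fit have no test. Precision is limited by the number of arrays. The rule names all members, the extreme genes of each related list in the Sdc4 contrast, and 3 genes by correlation. Members, lists and tests were chosen with earlier results of these data known.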

Additional observations from a re-analysis of the deposited data

Results flagged for a closer look

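The Sdc4+ minus Sdc4- values of Bgn and Podn had opposite signs in the 2 strains that gave both fractions. Bgn was at -0.028 in the Cspg4-cre strain and 0.20 in CD1, and Podn at -1.06 and 0.038, all log2 differences of 1 array against 1. The -0.028 and the 0.038 are within 2 SD of the scatter between spots (0.15 and 0.20), and the 0.038 became -0.0032 after normexp, so opposite directions are not shown. The difference between strains was not tested.

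The probe of Kera had 1 spot on the B195AP+ array with a processed signal of 398, where the brightest Kera spot not marked as an outlier was at 8.41 on any array. The software had marked it as an outlier and it was left out. Of the 70 Kera spots on the 7 arrays, 5 were marked.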

How the results depend on the processing

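Over 22 alternative settings 0 members passed the test in the Sdc4 contrast, and 0 in 21 settings of either Cspg4+ contrast. The Sdc4+ minus Sdc4- differences of Lum (-1.29 to -0.13), Ogn (-2.43 to -0.20) and Prelp (0.17 to 1.48) kept their sign in 21 of 21 settings that gave a value, and Bgn and Podn changed sign in 3 of 22 each. Counts over all genes, 0 in the reported fit, were 5 for Sdc4+ minus Sdc4- with the line as a random block, 11 for Cspg4+ minus Sdc4- and 80 for Cspg4+ minus Sdc4+. Without a filter they were 2484 and 2421 for the Cspg4+ contrasts, and with the series table of the authors they were 1 and 17 genes. Leaving out 1 array at a time gave 0 to 1 genes for Sdc4+ minus Sdc4-, the 1 without the CD1 Sdc4- array. The median over the members in Myf5SOR+ cells, -0.87, became -0.021 after normexp, 0.14 for probes well above background on 7 arrays and 0.036 with dim values raised. The median in B195AP+ cells, 0.25, became -1.10 without the streaked region, where Lum has no value, and -0.016 after quantile normalization. The filter for 7 arrays drops Ogn and Prelp, and the Myf5SOR+ median is then the value of Bgn, 0.14. The setting without the streaked region takes the median over the members other than Lum. Why the other settings moved the medians was not tested. No paired analysis by replicate number was possible because each label carries the same number. The strain was run as a block instead, and as a fixed block it left 1 residual degree of freedom. Signal limits Ogn and Prelp, near background, and Dcn, saturated.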

Other observations

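Podnl1, the nearest relative of Podn on the array, was well above background on 3 arrays. In Cspg4+ cells it was at least 2.60-fold higher than in Cspg4- Sdc4- cells, where Podn was 2.05-fold lower. Among Sdc4- cells Podnl1 was at least 2.96-fold higher in CD1 than in the Cspg4-cre strain, where Podn was 1.29-fold lower. Podnl1 passed the filter through the arrays where it was bright, so nothing is read from these directions. Within CD1, where both arrays measured them, Podnl1 differed by -1.47 and Podn by 0.04 between Sdc4+ and Sdc4- cells.

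Of the tendon markers, Tnmd and Mkx were well above background on 0 arrays and Scx, Thbs4 and Egr1 on 7. Of the cartilage markers, Col2a1, Matn1 and Comp were so on 0 arrays, Col9a1 on 1, Acan on 2 and Sox9 on 7. Of the leukocyte markers, Ptprc was so on 0 arrays, Mcpt4 on 3, Cd79b on 5, and Cd68, Csf1r, Cd3e and Itgam on 7. The summed linear level of Scx, Thbs4 and Egr1 was 37.7 to 69.0 times the 75th percentile in Sdc4+, 51.2 to 112 in Sdc4- and 132 in Cspg4+ cells. Scx, at -1.42 in Cspg4+ cells, adds little to this sum. Cspg4+ cells differed from the Sdc4- mean by 1.02 in Thbs4 and 0.38 in Egr1 but by -0.66 in Scx. The 3 genes thus did not share a direction, and no tendon level is read from the sum.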
